A study of Mus musculus with 6 samples.

Results

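The genes described here belong to the red blood cell and platelet lineages: the receptor gene Epor, the transcription factor genes Gata1, Klf1 and Nfe2, the enzyme genes Alas2, Car1 and Car2, and the secreted platelet factor gene Pf4. Every probe set that the platform's table gives to exactly 1 of these genes was taken. This found 9 of the 12488 probe sets on the array, and 8 of the 8251 genes that such single-gene probe sets name, with 2 probe sets for Gata1 and 1 for each other gene.

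Expression was measured in total RNA of double-negative thymocytes, T cell precursors without CD4 or CD8, on 6 single-colour Affymetrix arrays. The control group holds 3 arrays of RAG1-deficient mice, whose thymocytes cannot rearrange their antigen receptor genes. The other group holds 3 arrays of RAG1/Ezh2 double mutant mice, which lack RAG1 as well and in addition carry a mutation of Ezh2, the enzyme of Polycomb repressive complex 2 that writes the repressive histone mark H3K27me3. Neither the alleles, a deleting Cre line, the strain, the sex nor the age are stated in the labels. Whether arrays of a group came from separate animals is not stated either. The p-values below therefore set a group difference only against the scatter among these arrays, and that scatter may be technical. The titles follow 3 styles, called numbered, Rag and Thy here, each with 1 array per group. These form the 3 pairs, and replicates 1, 2 and 3 of each group have the numbered, Rag and Thy style. Replicates 1 and 3 of the RAG1-deficient group carry titles ending in WT, while their descriptions name RAG1 deficiency or mutation. The groups follow the descriptions, and if WT there meant intact RAG1, the comparison would not be between the genotypes named here.

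Red cells and platelets arise from a shared progenitor in which GATA1, the founding member of the GATA zinc finger family, switches on lineage genes together with cofactors. KLF1 binds CACCC elements of the adult beta-globin gene and other red cell genes, and NFE2, the p45 subunit of a heterodimer with small MAF proteins, acts on globin control regions and on platelet formation. EPOR carries the survival signal of erythropoietin, ALAS2 catalyses the first step of heme synthesis in red cell precursors, CAR1 and CAR2 are carbonic anhydrases that interconvert carbon dioxide and bicarbonate, and PF4 is a chemokine stored in platelet granules. None of these genes is a defining gene of T cell precursors, and several are also used in mast cells and their progenitors.

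Promoter sequences from RefSeq (GRCm38.p6) matched 5 of the 8 genes by symbol: Epor, Gata1, Klf1, Alas2 and Pf4. The 250 bases before the annotated start were searched on both strands for the GATA motif in its variants AGATAA or TGATAA, ending in A, and AGATAG or TGATAG, ending in G. The CACCC-type motif CCNCNCCC and the core of the NFE2 motif, TGAGTCA, were searched in the same way. Epor and Alas2 are shown because their promoters alone among the 5 held both a GATA and a CACCC-type match. They were also picked for their values. Epor read higher in the double mutant in all 3 pairs, without passing the test over all probe sets. Alas2 values were split by title style. Capitals mark the matches, a GATA match on the opposite strand reads TTATCT, and overlapping CACCC-type matches run together.
Epor (chr9:21963577-21963826, minus strand): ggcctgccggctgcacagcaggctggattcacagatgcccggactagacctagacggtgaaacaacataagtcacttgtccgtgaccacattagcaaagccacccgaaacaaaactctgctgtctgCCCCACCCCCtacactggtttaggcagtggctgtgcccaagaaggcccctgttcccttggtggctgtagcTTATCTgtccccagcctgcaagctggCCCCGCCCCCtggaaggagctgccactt
Alas2 (chrX:150547167-150547416, plus strand): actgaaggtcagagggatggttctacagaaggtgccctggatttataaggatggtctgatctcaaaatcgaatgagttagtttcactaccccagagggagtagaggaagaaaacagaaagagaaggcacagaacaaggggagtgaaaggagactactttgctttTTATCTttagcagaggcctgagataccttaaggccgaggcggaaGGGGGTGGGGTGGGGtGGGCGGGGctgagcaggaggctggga
In Epor the GATA match spans positions -54 to -49 from the start, and 4 overlapping CACCC-type matches lie at -124 to -115 and -28 to -19. In Alas2 the GATA match lies at -86 to -81, with 4 CACCC-type matches on the opposite strand between -42 and -19. The motif CCNCNCCC also takes in letters other than CACCC. The Epor matches at -28 to -19 and the Alas2 match at -26 to -19 do not hold CACCC itself. Klf1 held 1 GATA match and no CACCC-type match, Gata1 held 3 CACCC-type matches and no GATA match, and Pf4 held neither. The NFE2 core was found in 0 of the 5. Of all 32851 promoter windows in the table, 26.5% held any of the GATA motifs, 45.9% the CACCC-type motif, 8.19% both, and 4.46% the NFE2 core, and a match describes the letters only, not a bound site.

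The deposited intensities had been scaled to a common mean, and between 55.2% and 64.3% of the probe sets of an array exceeded 86.5. That level served as the filter: the 7642 probe sets that exceeded it on 3 or more arrays entered the tests. Ezh2, the targeted gene, read 1435, 1641 and 1790 on the RAG1-deficient arrays and 291.5, 650.6 and 723.6 on the double mutant arrays. The labels and the direction of the targeted gene thus go together, without overlap between the groups. Its log2 difference was -1.6. The adjusted p was 0.332 in the limma fit on group alone, which Ezh2 did not pass. It was 0.0261 in the limma fit with title style as a block. Markers of double-negative thymocytes were bright, with summed intensities of 103326 to 150104 in the RAG1-deficient and 94844 to 135987 in the double mutant group. Of 16 tested probe sets of these markers, 15 lay below 0 with a median log2 difference of -0.22, and 0 passed in either limma fit. RAG1-deficient replicate 1 stood apart in the double-positive stage markers, whose sum was 12160 there against 227 to 593 on the other 5 arrays. Cd8a read 2973 and Cd8b1 8426 on that array, whose title ends in WT, and at most 81.3 and 164.4 elsewhere. RAG1-deficient replicate 2 stood apart in the myeloid markers, with a sum of 19167 against 3980 to 8059. The 3'/5' ratio of the actin control transcript was highest on the 2 Rag arrays, at 2.26 and 2.77, and 1.24 to 1.99 elsewhere (exact two-sided permutation p = 0.9 between the groups).

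Nfe2, Car2 and Epor had higher values in the double mutant, without overlap between the groups, and the other genes showed no such separation. None of the 3 passed the test over all probe sets. Log2 differences are double mutant minus RAG1-deficient on the log2(intensity + 23) scale, which understates differences of dim probe sets. In the limma fit on group alone, 0 of the 6 tested member probe sets passed at an adjusted p of 0.05 in either direction, where 0.0393% of all tested probe sets passed as higher and 0% as lower. In the limma fit with title style as a block, called the paired fit below, 0 of 6 passed, against 0.563% of all as higher and 0.105% as lower. At an unadjusted p under 0.05 the group-only fit had 3 of the 6 higher and 0 lower, against 2.29% and 0.903% of all. The paired fit likewise had 3 higher and 0 lower, against 7.73% and 5.4%. The groups did not overlap for 3 of the 6, all higher in the double mutant, which held for 4.21% of all tested probe sets, while 2.92% were separated in the lower direction. Over the 6, 4 differences lay above 0 and 2 below with a median of 0.52, beside a median of -0.002 and 3790 above and 3852 below 0 over all tested probe sets. The members were chosen with earlier results of these data known, so these counts describe the set and do not test it. Of the RAG1-deficient arrays, only replicate 2 exceeded the filter for Epor.

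**Figure D1:**
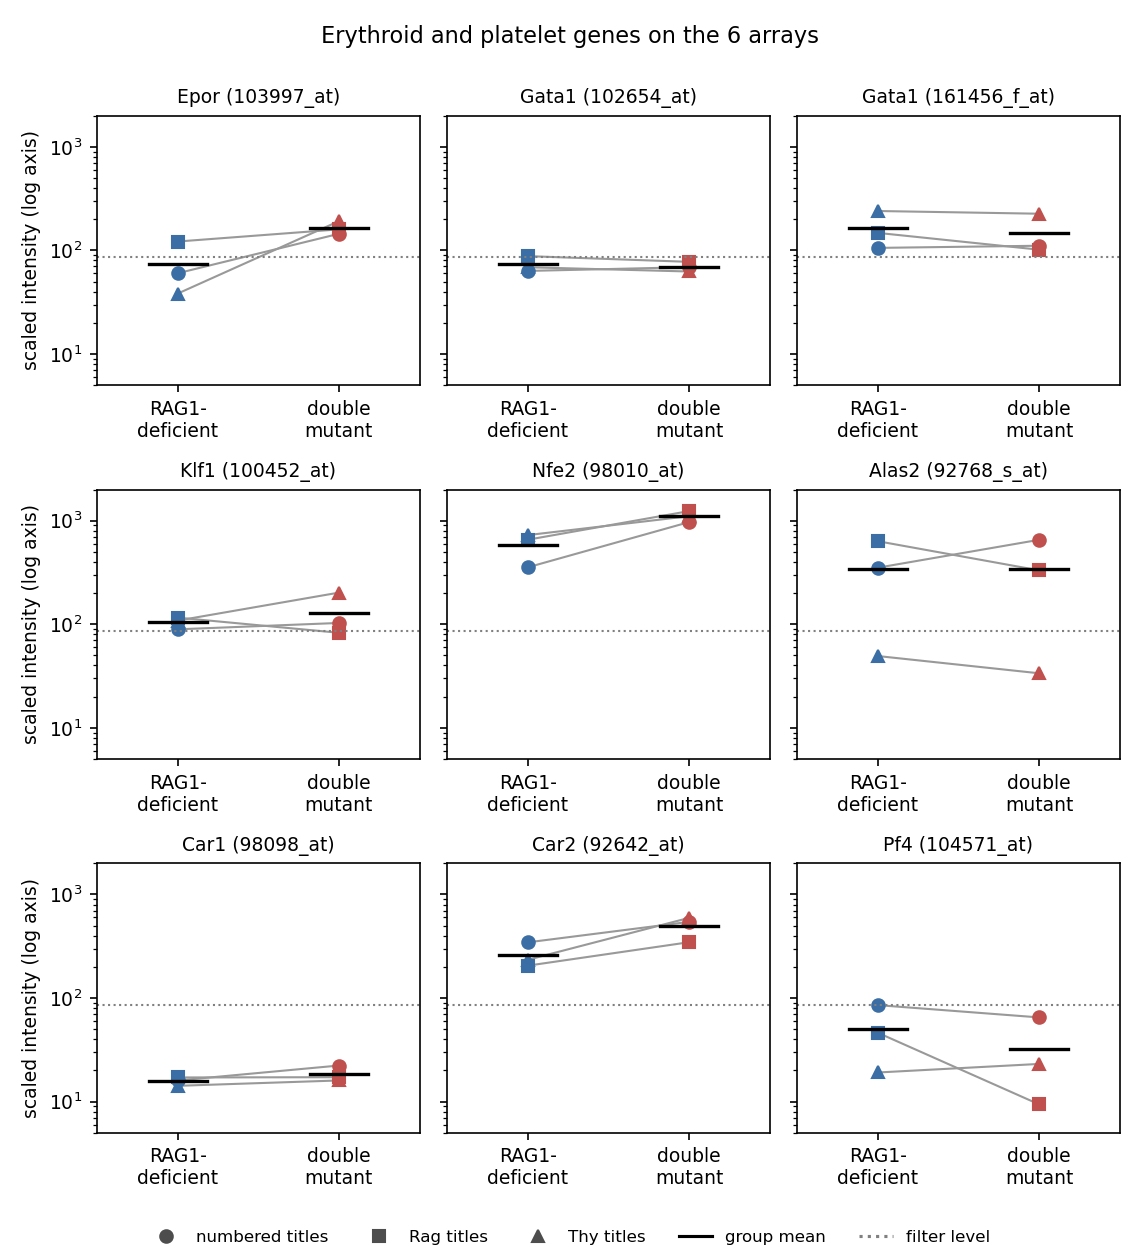
Scaled intensity (log axis) of the 9 probe sets in the RAG1-deficient (blue) and double mutant (red) arrays. Marker shapes give the title style, grey lines join the 2 arrays of a style, black bars are group means of 3 arrays and the dotted line is the filter level of 86.5. Of the 6 tested probe sets, those of Nfe2, Car2 and Epor were higher in all 3 pairs, as were 18.8% of all tested probe sets. The dim, untested Car1 was also higher in all 3 pairs, with nearly equal values in the Rag pair. The Thy arrays of Alas2 lie far below the other 4.

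Epor encodes the receptor through which erythropoietin keeps red cell precursors alive. Its probe set (103997_at) read 60.2, 121.9 and 38.3 on the RAG1-deficient arrays and 144.8, 159.8 and 191.8 on the double mutant arrays. All 3 double mutant values lay above all RAG1-deficient values, and the Rag pair showed the smallest step. The group means were 73.5 ± 43.4 (SD, n = 3) and 165 ± 24.0 (SD, n = 3). The log2 difference was 1.05 ± 0.41 (SE), with a 95% interval of 0.11 to 2.0 and an adjusted p of 1.0 in the group-only limma fit. The pairs, in the order numbered, Rag and Thy, gave 1.01, 0.34 and 1.81, and the paired limma fit an adjusted p of 0.251. Among all tested probe sets 1.3% had a difference at least this large. Epor was dim. The 3 double mutant arrays and RAG1-deficient replicate 2 exceeded the filter, so the probe set would have been tested through the double mutant arrays alone. In bulk RNA, fewer cells that express a gene and less RNA per cell cannot be told apart, here and for every gene that follows.

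Nfe2 encodes the p45 subunit of the globin and platelet factor, and its probe set (98010_at) exceeded the filter on all 6 arrays. The RAG1-deficient arrays read 354.4, 654.7 and 725.7 and the double mutant arrays 968.5, 1238 and 1105. The lowest double mutant value lay above the highest RAG1-deficient value. The means were 578 ± 197 (SD, n = 3) and 1104 ± 135 (SD, n = 3). The log2 difference was 0.96 ± 0.29 (SE), with a 95% interval of 0.29 to 1.63, and the adjusted p was 0.943 in the group-only limma fit. By pair it was 1.39, 0.90 and 0.59 in the numbered, Rag and Thy styles. The paired fit gave an adjusted p of 0.0699, and 1.54% of all tested probe sets had a difference at least as large.

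Gata1, the master factor of the lineage, is read by a pair of probe sets that differ in level and may cross-detect differently, since the identifier of one ends in _f_at, which marks probes shared within a gene family. The first (102654_at) read 63.4, 88.1 and 68.8 in the RAG1-deficient and 68.9, 77.6 and 62.6 in the double mutant arrays, lay above the filter on 1 array and was not tested. The second (161456_f_at) read 105.8, 147.7 and 240.3 against 111, 101.7 and 226.2. In both probe sets the groups overlapped. The second had a log2 difference of -0.16 ± 0.41 (SE), a 95% interval of -1.09 to 0.77 and an adjusted p of 1.0 in the group-only limma fit, and its highest values were those of the Thy pair.

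Klf1, the factor of the adult globin programme, exceeded the filter on 5 of the 6 arrays (100452_at). It read 89.3, 115.8 and 108.4 in the RAG1-deficient and 102.9, 82.7 and 202 in the double mutant arrays, with the Thy double mutant array the highest. The groups overlapped. The log2 difference was 0.18 ± 0.39 (SE), with a 95% interval of -0.72 to 1.08 and an adjusted p of 1.0 in the group-only limma fit, and by pair it was 0.16, -0.39 and 0.78.

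Alas2 encodes the red cell form of aminolevulinate synthase, and its values were split by title style. Its probe set (92768_s_at) read 351.5, 633.3 and 49.3 in the RAG1-deficient and 653.6, 331.2 and 33.6 in the double mutant arrays. The 4 numbered and Rag arrays lay between 331.2 and 653.6, and the 2 Thy arrays at 33.6 and 49.3 in both genotypes. The lowest of the 4 was 6.72-fold the higher Thy value, a gap reached by 9 of the 7642 tested probe sets, or 0.118%. The log2 difference between the genotypes was -0.13 ± 1.01 (SE), with a 95% interval of -2.44 to 2.18 (adjusted p = 1.0 in the group-only limma fit). In the paired fit the interval was -0.88 to 0.62, and by pair the difference was 0.85, -0.89 and -0.35.

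The adult globin genes Hba-a1 and Hbb-b2 and the keratin genes Krt8 and Krt18 had the same split as Alas2. They were chosen for this comparison after their values were seen. Hba-a1, an alpha-globin gene, lay between 16352 and 30031 on the numbered and Rag arrays and at 374.6 and 794.2 on the Thy arrays. Hbb-b2, a beta-globin gene, lay between 5028 and 10295 against 89.4 and 283.7. The epithelial keratin genes Krt8 and Krt18 (its brighter probe set) lay between 521.9 and 1132 and between 897.6 and 1336, against 27.3 and 48.7 and 104.5 and 175.3. Over the 6 arrays, which share their title styles, the log2 values of these 4 genes correlated with those of Alas2 at r = 0.948 to 0.967, as a description. Within the numbered and Rag pairs, Hbb-b2 had the same signs as Alas2 (0.84 and -0.73). In the Thy pair it had the opposite sign (1.45 against -0.35). Not every red cell gene was split in this way: Slc4a1, the anion exchanger of the red cell membrane, read 69.9, 99.4 and 173.4 in the RAG1-deficient and 117.6, 101.9 and 123.3 in the double mutant arrays. Nor was every epithelial gene: Epcam read 116, 217.3 and 235.9 against 119.2, 149.3 and 193. The keratin gene Krt5 was dim, at 7.5 to 67, with its lowest values on the Rag arrays. The part of red cell or epithelial RNA in the Alas2 values was not tested.

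**Figure D2:**
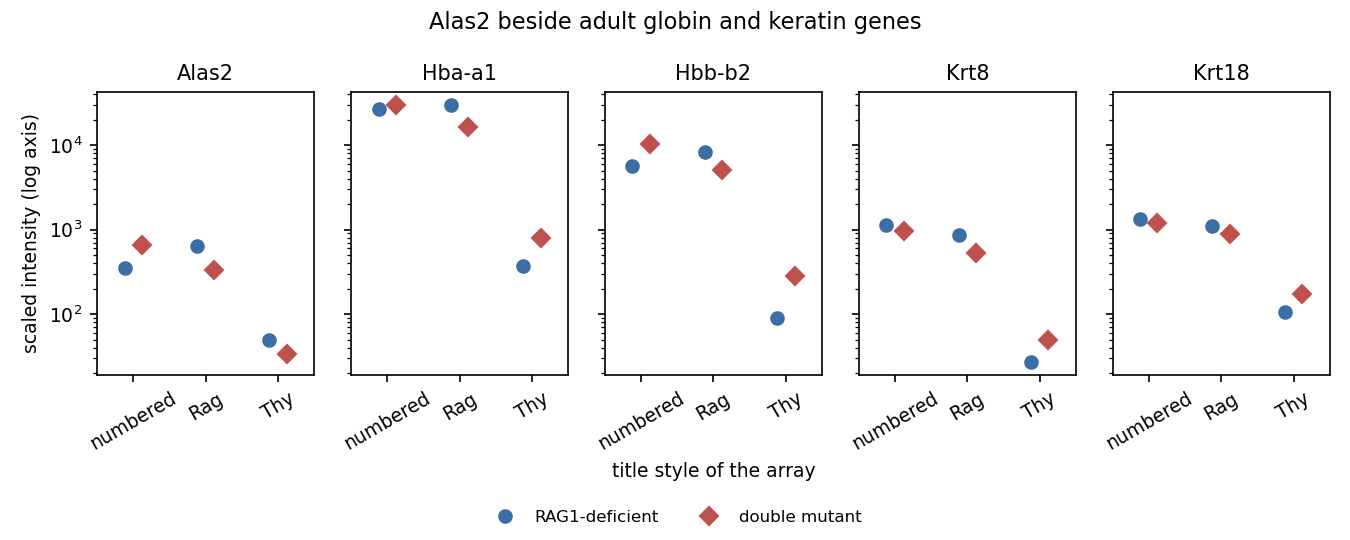
Scaled intensity (log axis) of Alas2, the globin genes Hba-a1 and Hbb-b2 and the keratin genes Krt8 and Krt18 by title style of the array, RAG1-deficient as blue circles and double mutant as red diamonds, 1 array each. In each panel both Thy arrays lie below all 4 numbered and Rag arrays.

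Car2, the widely used cytosolic carbonic anhydrase of red cells, bone-resorbing cells and kidney, read 344.9, 205.4 and 234 in the RAG1-deficient and 544, 345.9 and 594.2 in the double mutant arrays (92642_at). The groups were separated by a small margin, since the Rag double mutant array at 345.9 was just above the numbered RAG1-deficient array at 344.9. The means were 261 ± 73.7 (SD, n = 3) and 495 ± 131 (SD, n = 3). The log2 difference was 0.86 ± 0.30 (SE), with a 95% interval of 0.18 to 1.54 (adjusted p = 1.0 in the group-only and 0.119 in the paired limma fit). It was 0.62, 0.69 and 1.26 in the numbered, Rag and Thy pairs, and 1.83% of all tested probe sets had a difference at least as large.

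Car1, the carbonic anhydrase most tied to red cells, was dim on every array. It read 16, 17.1 and 14.2 in the RAG1-deficient and 22.3, 17.2 and 16 in the double mutant arrays (98098_at), below the filter on all 6, and was not tested. On the numbered and Rag arrays, where the globin genes were bright, Car1 lay between 16 and 22.3. Pf4, the platelet chemokine, read 85.4, 46.2 and 19.1 against 65, 9.4 and 23.1 (104571_at), was under the filter on all 6 arrays and was not tested. Its higher values were on the numbered arrays in both genotypes. No detection calls were used, so these dim values bound neither gene at 0.

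**Figure D3:**
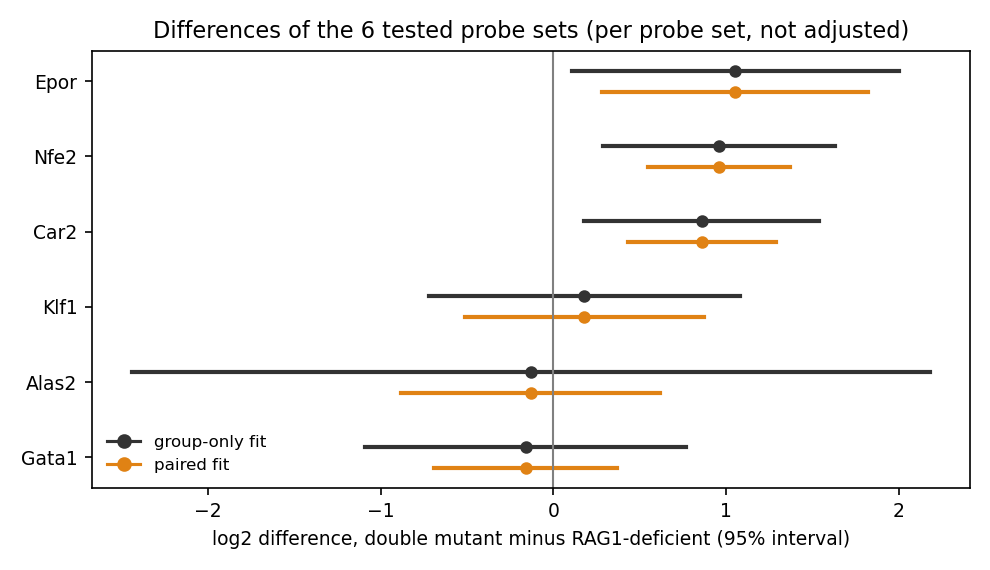
Log2 difference, double mutant minus RAG1-deficient, of the 6 tested probe sets with 95% intervals per probe set, not adjusted for the number of probe sets, from the group-only fit (dark) and the paired fit (orange). The intervals of Epor, Nfe2 and Car2 lie above 0 in both fits, those of Klf1, Alas2 and Gata1 include 0, and the Alas2 interval is the widest in the group-only fit.

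Single arrays and pairs moved these values. Without RAG1-deficient replicate 1, the array with the double-positive stage markers, the log2 difference was 0.65 for Nfe2, 1.06 for Car2 and 0.99 for Epor, and none passed in the limma fit. When the Rag pair was left out of the paired limma fit, Nfe2 (0.99, adjusted p = 0.00452) and Car2 (0.94, adjusted p = 0.0206) rose. Epor did not pass (1.41, adjusted p = 0.0899). Hbb-b2, which was split by title style, rose in that fit as well (1.15, adjusted p = 0.000135). From the lists below, so did Lyl1 (1.32, adjusted p = 1.15e-05), Gab1 (1.8, adjusted p = 0.0204) and F2r (0.75, adjusted p = 0.0402). With the filter read from the 4 arrays kept, Nfe2 (adjusted p = 0.00251) and Car2 (adjusted p = 0.0142) rose likewise and Epor was too dim to test. The fit rests on 2 pairs and takes its spread largely from pooling over probe sets, and it called 1.66% of all probe sets higher and 0.837% lower.

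Other genes of the lineages, from lists that hold none of the 8 genes, did not pass in either limma fit of all 6 arrays over all probe sets. Among the erythroid transcription factors, partners and relatives, 19 probe sets of 13 genes were tested, 9 above and 10 below 0, with a median log2 difference of -0.06. Lyl1, a bHLH factor of progenitors, read 474, 802.4 and 634.1 against 1290, 1178 and 1517 on the brighter probe set, without overlap, with a log2 difference of 1.06 ± 0.25 (SE) and an adjusted p of 0.445 in the group-only and 0.0606 in the paired limma fit. The other probe set of Lyl1 showed 0.62. Mafk, which encodes a small MAF partner of NFE2, read 1090, 790 and 1088 against 835.1, 586 and 777.3, with a log2 difference of -0.42 ± 0.24 (SE), and was lower in all 3 pairs. Tal1, a central factor of early blood formation, lay under the filter at 5.7 to 59.6.

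The heme synthesis and iron list had 16 tested probe sets of 12 genes, 10 above and 6 below 0, with a median of 0.10. Ppox, an enzyme of the late steps of heme synthesis, had -0.24 ± 0.24 (SE). The iron transporter gene Slc11a2 had 0.28 on one probe set and -0.03 on the other. Urod, another heme enzyme gene, had -0.55 and 0.09 on its probe sets. Alas1, the form of the first enzyme that most cells use, read 1087, 870.7 and 469.5 against 905.9, 598 and 514.4. Both Thy arrays of Alas1 also lay below the other 4, by a smaller margin than for Alas2.

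Of the globin and red cell membrane list, 20 probe sets of 14 genes were on the array and 7 were bright enough to test, 5 above and 2 below 0, with a median of 0.08 and a pair median from -0.73 in the Rag to 0.31 in the Thy pair. The embryonic globin gene Hba-x had -0.61 ± 0.53 (SE), and Ank1, which links the membrane to the cytoskeleton, had -0.21 ± 0.40 (SE). Hbb-b2, given above, had 0.52 ± 1.74 (SE).

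Downstream of EPOR, the kinase JAK2 and the factor STAT5 carry the signal. Of 17 tested probe sets of 13 genes, 9 lay above and 8 below 0, with a median of 0.00. Gab1, a docking protein gene, read 77.1, 74.1 and 11.2 against 224.5, 107.3 and 144. Its groups did not overlap, and the log2 difference was 1.34 ± 0.53 (SE), while the paired limma fit gave it an adjusted p of 0.216. The 3 arrays above the filter were the double mutant arrays, so the probe set was tested only through the group where it is high. A second, untested probe set of Gab1 overlapped between the groups. Stat5a had 0.42 ± 0.24 (SE) and 0.36 ± 0.22 (SE) on its probe sets. Socs3, a feedback inhibitor gene, had -0.45 ± 0.22 (SE) and -0.25 ± 0.37 (SE). The first of these was lower in the double mutant without overlap (1089, 1030 and 751.4 against 686, 666.4 and 709.6). Ptpn6, a phosphatase gene that limits the signal, was also lower without overlap, with 971.8, 1121 and 1191 against 879.4, 826.3 and 939.8. Its log2 difference was -0.30 ± 0.20 (SE), with a paired adjusted p of 0.382 by limma. Jak2, on its brighter probe set, had -0.06, with intensities of 365.1, 364.2 and 413.4 against 352, 343.7 and 397.

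The megakaryocyte and platelet list was mostly dim: of 20 probe sets of 15 genes, 9 never exceeded the filter and 7 were tested, 5 above and 2 below 0, with a median of 0.10. The platelet membrane genes Gp1bb, Gp5, Gp9 and Itgb3 lay at or below 63.4 on every array. The thrombin receptor gene F2r had 0.56 ± 0.27 (SE) on its brightest probe set, and 0.19 and 0.10 on the others. Cd9, a tetraspanin of platelets and other cells, had 0.23 ± 0.26 (SE). Of the other carbonic anhydrases, 4 probe sets of 3 genes were tested, with a median of -0.10. Car4 had -0.52 ± 0.47 (SE) and -0.21 ± 0.28 (SE), and Car12 had 0.11 ± 0.23 (SE). Car3, which is next to Car2 in the gene order of the RefSeq table, stayed under the filter at 10.8 to 51.9.

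Single markers of mast cells, NK cells and stromal cells rose in the paired limma fit and not in the group-only fit. The summed intensity of the rest of each list overlapped between the groups. The genes left out there were those that rose, so this overlap is a description and tests no share of cells. The summed intensity of the 21 mast cell and basophil probe sets was 2151 to 2694 in the RAG1-deficient and 3134 to 4784 in the double mutant group, without overlap. Without Cpa3 the sums were 1526 to 1995 and 1509 to 2135 and overlapped. Of 8 tested, 1 rose in the paired limma fit: Cpa3, a protease gene of mast cells and some progenitors, with 156.3, 513.4 and 569.3 against 1007, 2992 and 1287 (log2 difference 2.05, paired adjusted p = 0.0261, 0.636 in the group-only fit). Its second probe set had 0.92, without overlap, and did not pass. In the other direction, an untested probe set of the mast cell protease gene Cma1 was lower without overlap (67.8, 20.5 and 64.1 against 5.8, 7.8 and 14). That probe set never exceeded the filter, and the other Cma1 probe sets overlapped. Of the 21 probe sets, 11 never exceeded the filter, among them those of Fcer1a at 2.1 to 37.3, Ms4a2 at 29.4 to 63.8 and Tpsab1 at 2.6 to 7.0. The tryptase gene Tpsb2 exceeded it on all 6 arrays, with overlapping groups and log2 differences of -0.14 and 0.17 on its probe sets. Gata2 had 0.19 on its brighter probe set and Srgn had -0.06. Kit read 457.4, 191.1 and 249.8 against 537.4, 301.7 and 402.6. The 7 NK probe sets summed to 2752 to 4324 against 7882 to 10038, and 2 of 6 tested rose in the paired limma fit. These were the granzyme genes Gzma, with 2796, 2163 and 1244 against 8096, 7946 and 4982, and Gzmb, with 190.8, 199.4 and 298.5 against 414.2, 553.1 and 902.7. In the group-only limma fit neither passed (adjusted p = 0.267 and 0.542). Without the granzyme genes the NK sums were 1205 to 1962 against 1058 to 1998 and overlapped. The NK receptor gene Klrd1 had a log2 difference of -0.32, and Klrk1 had -0.02 and 0.36 on its probe sets. Ncr1, another NK receptor gene, had 0.45 ± 0.28 (SE), with overlapping groups and higher values in 2 of the 3 pairs. The sums of the myeloid, B lineage and stromal, epithelial and endothelial lists overlapped between the groups. Of 8 tested stromal probe sets, 1 rose in the paired limma fit: Pdgfrb, a growth factor receptor gene of mesenchymal cells, with 135.4, 210.3 and 201.6 against 419.9, 536.5 and 404.8 (log2 difference 1.22, paired adjusted p = 0.0436, 0.332 in the group-only fit).

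Markers of the double-negative thymocytes themselves lay lower beside these genes. Ptcra, the invariant chain of the pre-T cell receptor, read 6588, 10480 and 8063 in the RAG1-deficient and 5140, 5964 and 4614 in the double mutant arrays, without overlap (log2 difference -0.66, paired adjusted p = 0.0827 by limma). Rag1 read 6933, 7241 and 7264 against 5394, 5226 and 5171 on its brighter probe set, without overlap (log2 difference -0.44, paired adjusted p = 0.143 by limma), and its other probe set overlapped. The descriptions name RAG1 deficiency or mutation in both groups, and what Rag1 transcript was read here was not tested. The part of any of these cells in the values of Nfe2, Car2 and Epor was not tested.

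The genes with the pattern most like that of Nfe2, the member with both the smallest unadjusted p and the highest mean, were Osbpl1a (r = 0.998), Plekho1 (r = 0.998) and Mybbp1a (r = 0.991), over the log2 values of 6 arrays. Among the other tested probe sets of single genes 0.844% had r above 0.9. With 6 arrays in 3 shared styles such values are a description. Among the members themselves, Nfe2 correlated with Epor at r = 0.69 and with Car2 at 0.42, and Alas2 with Gata1 at -0.85, over the same 6 arrays.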

How the data were processed

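Per the labels, total RNA of 6 samples was measured. The authors deposited 1 linear intensity per probe set and array, and the software that made it is not given in the sources used here. By its values, each array's 2%-trimmed mean lay between 500.293 and 500.37, so the deposited intensities had been scaled to a common mean. Such scaling hides a change shared by most transcripts.

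The 66 control probe sets were left out, leaving 12422. The platform's table named 1 gene for 10833, several for 396 and none for 1193. Of the 10833, 10817 were found in the RefSeq table of GRCm38.p6 by Entrez number and 0 symbols changed. Values were tested as log2(intensity + 23), the 20th percentile of all values, for probe sets above 86.5 (the 40th percentile) on at least 3 of 6 arrays. Group differences came from limma 3.58.1 under R 4.3.3 (trend on mean level, two-sided, Benjamini-Hochberg over all 7642 tested, threshold 0.05). These fits partly pool the spread over probe sets. They were checked on simulated data, with changes placed only in probe sets above the filter on all 6 arrays. That check did not cover dim probe sets such as that of Epor, or splits between styles as large as that of Alas2. Control transcript ratios were compared with an exact permutation test, whose smallest possible p is 0.1 here. Figures used matplotlib 3.10.9.

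Title styles were checked for pairing: deviations from the group means correlated within a style at 0.57, 0.736 and 0.602, each above the limit of 0.1 set for pairing, and between styles at -0.544 to 0.0394. The labels name no litter, day or batch.

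The members and gene lists were chosen with earlier results of these data known. Named genes are all members, Ezh2, pathway list genes that passed or had the smallest unadjusted p (up to 3 a list), and the 3 most correlated with Nfe2; exceptions named for contrast (the globin and keratin genes, Slc4a1, Alas1, Tal1, Jak2, Car3, Ptpn6, the platelet membrane genes and the genes of the marker lists) were chosen after their values were seen. Alternatives varied the pseudocount (5.4, 86.5), filter (none, 273.7), scaling, trend, pairing and arrays. When arrays were left out, the filter was first read from the arrays kept. After that output was seen, it was read from all 6 arrays, and the first version was retained as an added alternative.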

Additional observations from a re-analysis of the deposited data

How the results depend on the processing

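Nfe2, Car2 and Epor stayed above 0 under the 28, 28 and 26 alternatives that gave each a value, with log2 differences of 0.65 to 1.15, 0.66 to 1.09 and 0.67 to 1.41. With title style as a replicate block, 0 of the members passed, as in the fit without it, and the block changed no other call of a member (Nfe2 0.96, Car2 0.86, Epor 1.05, Klf1 0.18, Alas2 -0.13, Gata1 -0.16). In the block fit without the Rag pair the number of members called higher was 2, and 1 probe set each was called higher among the erythroid transcription factors, the globins and red cell membrane, the erythropoietin receptor signalling and the megakaryocyte and platelet genes. Over all probe sets the counts higher and lower were 3 and 0 on group alone, 43 and 8 with the block, 127 and 64 without the Rag pair, 12 and 2 when the numbered pair was dropped, 3 and 0 when the Thy pair was, 17 and 0 with quantile scaling and block, and 5 and 0 with the block and no filter, an alternative added after seeing the data; on group alone other settings gave 0 to 6 higher and 0 lower. The differences of Alas2, Gata1 and Klf1 changed sign: with 1 array left out they ranged from -1.06 to 0.91, -0.47 to 0.12 and -0.14 to 0.41, and in the block fit Alas2 was 0.25 without the Rag pair and Klf1 -0.11 without the Thy pair. List medians with 1 array left out ranged from -0.23 to 0.12 (transcription factors), -0.43 to 0.02 (globins), -0.04 to 0.14 (heme), -0.09 to 0.31 (erythropoietin receptor signalling), -0.27 to 0.72 (megakaryocyte) and -0.16 to -0.07 (carbonic anhydrases). In the block fit the transcription factor median was 0.06 without the Rag pair and the heme median 0.03 without the Thy pair; with no filter the carbonic anhydrase median was 0.06 with and without the block. The causes were not tested, apart from the smaller number of arrays where some were left out. With the filter read from the arrays kept, which was the version run first and replaced after its output was seen, the block fit called 112 higher and 68 lower without the Rag pair, 9 and 2 without the numbered pair and 7 and 0 without the Thy pair; the members called higher were again 2 without the Rag pair, the erythroid transcription factors, globins and megakaryocyte genes again had 1 each, and the erythropoietin receptor signalling genes had 0. In that version, with 1 array left out, the positive Alas2 values were 0.13, 0.54 and 0.91; transcription factor medians reached -0.24 and 0.12, heme medians -0.04 and 0.01, the erythropoietin receptor signalling median 0.24, megakaryocyte medians -0.27, -0.23, 0.32 and 0.72, and carbonic anhydrase medians -0.0016, 0.03 and 0.12. With a pair left out, the megakaryocyte median was 0.40 without the Thy pair and the carbonic anhydrase median 0.04 without the numbered pair. With a filter of 273.7, Epor, Gata1 and Klf1 were too dim to test.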

Other observations

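The patterns most like those of the other tested members, outside the naming rule and chosen after their values were seen, are given as values over 6 arrays. Those closest to Car2 were Rasgrp2 (r = 0.989) and the DNA replication genes Cdc45 (r = 0.988) and Cdt1 (r = 0.988). Cdt1 read 1571, 1105 and 1254 in the RAG1-deficient and 2398, 1790 and 2383 in the double mutant arrays. Those closest to Alas2 were Rnpepl1 (r = 0.989), Baz1b (r = 0.988) and the growth factor gene Igf1 (r = 0.988), which read 162, 186.1 and 14.2 against 281.7, 145 and 13.2. Those closest to Epor were Vipr2 (r = 0.989), Numb (r = 0.978) and Bsn (r = 0.974). Those closest to Gata1 were Tsc1 (r = 0.987), Utrn (r = 0.986) and Mxi1 (r = 0.981). Klf1 was closest to Trim21 (r = 0.987), which read 314.1, 383.3 and 363.5 against 322.8, 216.2 and 1252. Between 0.276% and 1.83% of the other named probe sets had r above 0.9 with a given member.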
